A study of Mus musculus with 6 samples.

Results

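Meg3, Rian, Mirg, Mir17hg, Miat, Malat1, Neat1, Snhg11 and Six3os1 are long noncoding transcripts, and 4 of them carry microRNA hairpins. They were taken by symbol from the RNA-seq table of a study of mouse retina, as the noncoding transcripts of the imprinted Dlk1-Dio3 domain, the host of the miR-17-92 cluster, and abundant nuclear or retinal long noncoding RNAs. The table held all 9 among its 22731 genes. Of these, 8 had a mean of at least 1 RPKM (reads per kilobase of gene model, normalized to library depth) and were among the 12599 genes tested, and Mir17hg lay just under that level. None of the 8 passed an adjusted p of 0.05, and Mirg and Miat were higher in all 3 knockout libraries than in all 3 control libraries. Among all tested genes, 5.91% had this order and 5.78% the opposite order, which none of the 8 had.

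The study compared 3 libraries of a rod-specific Dicer1 conditional knockout (cKO, genotype Dicerfl/fl, iCre75+, replicates 2, 3 and 4) with 3 of control littermates (Dicerfl/fl, iCre75-, replicates 1, 2 and 3). All mice had floxed Dicer1 alleles on a mixed C57BL/6J - SJL background and were 4 weeks old, and retinas were taken between 8 and 10 in the morning. Cre was present only in the cKO group, under a rod promoter, so the other retinal cells kept Dicer1. Every library held poly(A) RNA from a pool of 4 mice, and the series describes the pools as biological replicates.

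Dicer is the ribonuclease that cuts microRNA hairpins into mature microRNAs in the cytoplasm. It acts after the nuclear enzyme Drosha has cropped the hairpin from a long primary transcript. Mirg, Rian, Meg3 and Mir17hg are such primary or host transcripts, and poly(A) libraries of whole retina measure the hosts, not the mature microRNAs. Meg3, Rian and Mirg are transcribed in the same direction from the maternal chromosome of the Dlk1-Dio3 domain, where the paternal chromosome expresses the protein-coding genes Dlk1, Rtl1 and Dio3. Malat1 and Neat1 are nuclear RNAs. Malat1 gathers in nuclear speckles with splicing factors, and Neat1 is the scaffold of paraspeckles. Miat, also called Gomafu or RNCR2, is a nuclear RNA of neurons that is known from the developing retina, and Six3os1 is transcribed opposite to the eye-field gene Six3.

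The microRNAs that lie in these transcripts are shown because they are what Drosha and Dicer would release from them. The sequences are mature microRNAs from RefSeq (GRCm38.p6), written 5′ to 3′ with the seed, bases 2 to 8, in capitals. Mir17hg lies at chr14:115042879-115046727 (plus strand, GENCODE M21 on GRCm38) and holds 6 hairpins. Among their products, miR-17 and miR-20a share the seed AAAGUGC, which 7 RefSeq mature mouse microRNAs carry, and miR-19a and miR-19b share GUGCAAA, while the seeds of miR-18a and miR-92a are different.
miR-17-5p: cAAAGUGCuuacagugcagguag
miR-20a-5p: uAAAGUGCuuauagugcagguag
miR-18a-5p: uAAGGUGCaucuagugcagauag
miR-19a-3p: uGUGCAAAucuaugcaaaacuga
miR-19b-3p: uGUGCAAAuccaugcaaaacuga
miR-92a-3p: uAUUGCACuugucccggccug

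In the Dlk1-Dio3 domain, Meg3 (chr12:109541001-109571726), Rian (chr12:109603940-109661716) and Mirg (chr12:109729764-109749460) lie in that order on the plus strand of GRCm38. Meg3 holds 1 annotated hairpin, Rian 3 hairpins and 13 small nucleolar RNAs (snoRNAs), and Mirg 14 hairpins. The products of Mirg differ widely in seed. Among those with a mature entry, miR-453 and miR-496a-5p shared a seed, and miR-377 and miR-3072 belong to the only listed hairpins of the domain whose own rows reached the level for testing.
miR-453: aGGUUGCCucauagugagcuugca
miR-496a-5p: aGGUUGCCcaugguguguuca
miR-377-3p: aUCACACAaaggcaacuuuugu
miR-3072-3p: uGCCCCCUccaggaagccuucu
miR-134-5p: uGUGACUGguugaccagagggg
miR-410-3p: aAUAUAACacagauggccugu

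Reads worked back from the RPKM steps came to between 12336599 (cKO replicate 4) and 32935029 (control replicate 3) in genes. Dicer1 itself stood at 8.02, 7.06 and 7.91 RPKM in the cKO and 8.48, 8.77 and 8.33 RPKM in the controls, lower in every cKO library (adjusted p = 0.931, limma). Its value covers the whole gene model and all retinal cells, which makes it a weak test of the labels. The cKO replicate 4 library held the highest value of 30.3% of all tested genes, more than any other library. Summed bipolar cell markers were 361.8 to 394.8 RPKM in the cKO and 334.7 to 339 RPKM in the controls, with 2 of 6 markers higher in every cKO library, which 5.91% of all tested genes were. Summed amacrine cell markers overlapped, at 304.7 to 326.5 against 295.8 to 308 RPKM, and 2 of the 5 in the table were higher in every cKO library. Summed Müller glia markers were 1895.2 to 1940.4 RPKM against 1945.4 to 2151.8 RPKM, with 1 of 6 markers lower in every cKO library, against 5.78% of all tested genes. Rod marker sums overlapped, at 20179.9 to 22260.2 against 21365.2 to 24782.8 RPKM, with 1 of 8 markers lower in every cKO library. Sums of horizontal cell and microglia markers also overlapped. Of these, 1 of 5 horizontal cell markers was higher and 1 of 5 microglia markers lower in every cKO library. No marker of any cell type passed the test. Lens markers varied widely between libraries of the same group, at 98.11 to 1317.9 RPKM in the cKO and 179.6 to 1769.2 RPKM in the controls. The labels give no sex, and Xist, named after its values were seen, was 0.00648 RPKM in control replicate 1 and between 3.94 and 27.1 RPKM in the other libraries. The part of these shifts in the results that follow was not tested. In whole retina, fewer cells of a type and less RNA per cell cannot be told apart.

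The 9 transcripts spanned a wide range of level per length. In the controls the order of median RPKM was Malat1, Snhg11, Meg3, Rian, Six3os1, Neat1, Miat, Mirg and Mir17hg. Neighbours in this order did not overlap between their 3 control values, except Rian and Six3os1, which lay together at 8.95 to 10.5 and 9.31 to 9.92 RPKM. Over all 6 libraries Miat and Mirg overlapped as well. Malat1 had a higher mean RPKM than 98.8% of the tested genes, Snhg11 than 94.8% and Meg3 than 85%. Rian and Six3os1 stood near the middle, above 52.9% and 51.5% of them, and Neat1 above 44.4%, Miat above 29.2% and Mirg above 23.2%.

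**Figure D1:**
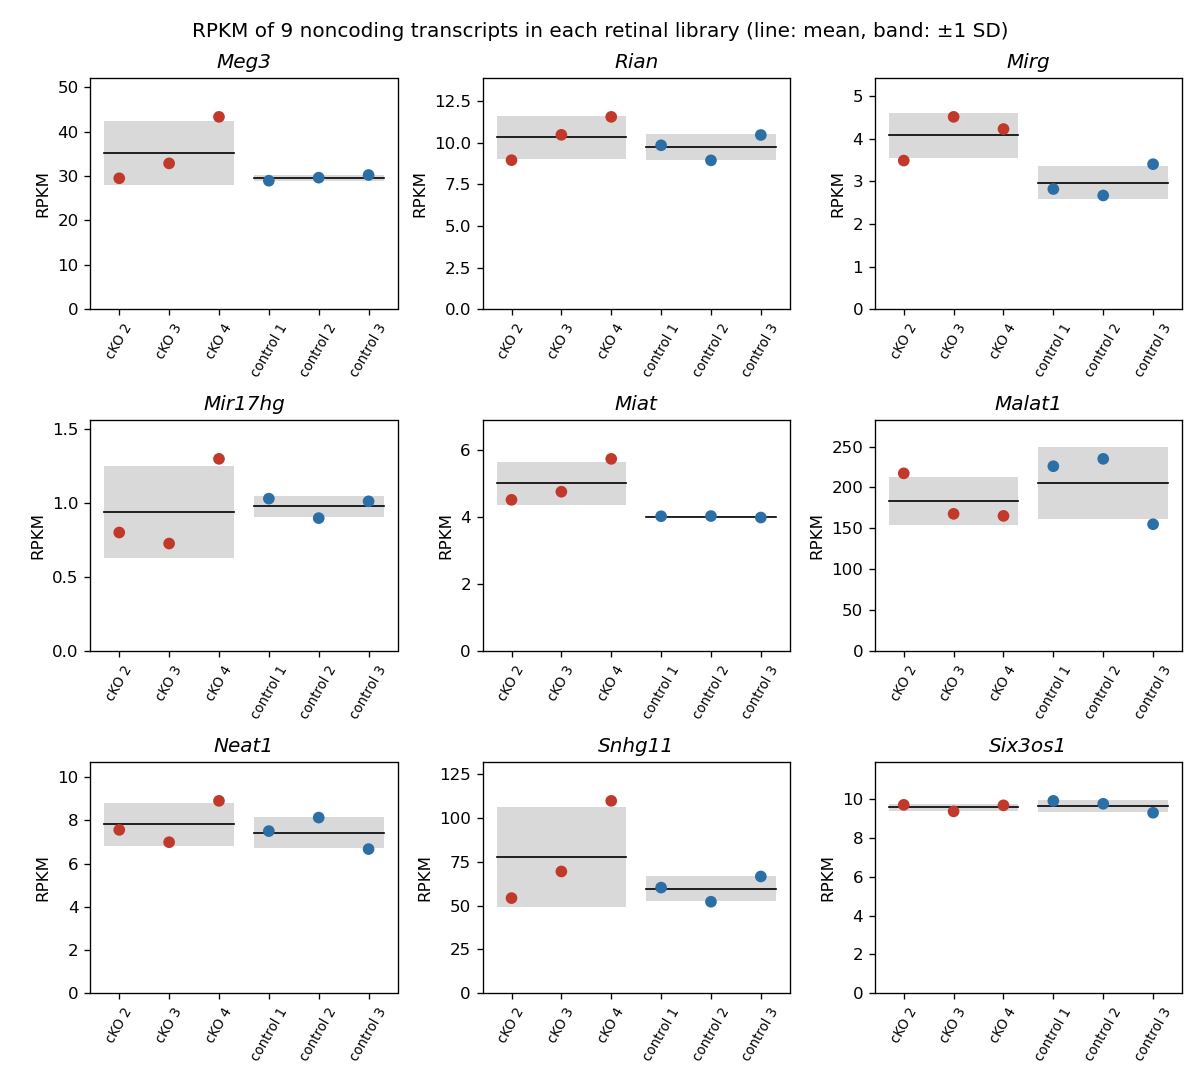
RPKM (vertical axes, each starting at 0) of the 9 transcripts in each library, with cKO replicates 2, 3 and 4 in red and control replicates 1, 2 and 3 in blue. Lines are group means and bands are 1 SD to either side (n = 3). The cKO points lie above all control points for Mirg and Miat, and cKO replicate 4 is the highest library for 6 of the 9.

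Of the 8 tested transcripts, 6 had a higher and 2 a lower mean in the cKO on the log2(RPKM + 0.5) scale, and their median difference was 0.15 beside -0.005 for all tested genes. Without cKO replicate 4 the median was 0.021, and without cKO replicate 2 it was 0.26. None passed the adjusted threshold, which 0.00794% of all tested genes passed, all of these higher. Unadjusted p was under 0.05 for 2 of the 8, against 5.71% of all tested genes. Both were higher in the cKO, a direction that 2.65% of all tested genes had at this p, and none was lower, against 3.06%. In 2 of the 8 the cKO values all lay above the control values, against 5.91% of all tested genes, and in none did they all lie below, against 5.78%. These 2 were Mirg and Miat in both counts. With 8 transcripts, shares of this size are coarse. An exact permutation test of 3 against 3 libraries cannot go below 0.1.

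Of the Dlk1-Dio3 transcripts, Mirg was the farthest from its control level. Mirg carries the distal microRNA hairpins of the domain, including those of miR-134 and miR-410. It stood at 3.49, 4.51 and 4.22 RPKM in cKO replicates 2, 3 and 4 and at 2.82, 2.67 and 3.4 RPKM in control replicates 1, 2 and 3. The lowest cKO library lay just above the highest control library, and cKO replicate 3 was the highest. The mean was 4.07 ± 0.529 RPKM (SD, n = 3) in the cKO and 2.96 ± 0.388 RPKM (SD, n = 3) in the controls, or 137.5% of control. The log2 difference was 0.40 ± 0.119 (SE), with an adjusted p of 0.849 (limma) and an exact permutation p of 0.1. These values rest on 83 to 210 reads a library, and at the fewest reads the counting error alone was 11% of the value. The gap between the nearest libraries of the 2 groups was smaller than that counting error.

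Rian, which carries most of the snoRNAs of the domain, lay upstream of Mirg and did not separate the groups. It stood at 8.96, 10.5 and 11.6 RPKM in the cKO and 9.85, 8.95 and 10.5 RPKM in the controls. Both groups covered about the same range, and the log2 difference was 0.07 ± 0.109 (SE, adjusted p = 0.997, limma). Meg3, a nuclear RNA with growth-restraining functions in other tissues, stood at 29.5, 32.9 and 43.4 RPKM in the cKO and 29, 29.7 and 30.3 RPKM in the controls. Its 3 control libraries were nearly level, with an SD of 2.18% of the mean, while cKO replicate 4 stood far above every other library and cKO replicate 2 lay inside the control range. Meg3 averaged 35.3 ± 7.22 RPKM (SD, n = 3) against 29.6 ± 0.646 RPKM (SD, n = 3), a log2 difference of 0.23 ± 0.138 (SE, adjusted p = 0.945, limma). Without cKO replicate 4 that difference was 0.07. The library with the fewest Meg3 reads had 8465 of them and a counting error of 1.09%, beside an SD of 20.5% of the mean in the cKO.

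The ratio of Mirg to Rian was taken within each library, where depth cancels. A shift with gene length need not cancel, as the models of Mirg and Rian have 1299 and 3579 nt. Mirg stood at 38.9%, 43% and 36.5% of the Rian level in the cKO and at 28.6%, 29.8% and 32.5% in the controls. All 3 cKO ratios lay above the control ratios, with means of 39.5 ± 3.28% and 30.3 ± 1.99% (SD, n = 3). The lowest cKO ratio, in replicate 4, rests on 83 Mirg reads (counting error 11%) and 626 Rian reads (4%). Mirg relative to Meg3 overlapped between the groups, at 11.8 ± 1.99% and 9.99 ± 1.15%, and so did Rian relative to Meg3, at 29.6 ± 2.68% and 32.9 ± 2.4%. The ratios were chosen with the values of these transcripts known and were not tested.

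**Figure D2:**
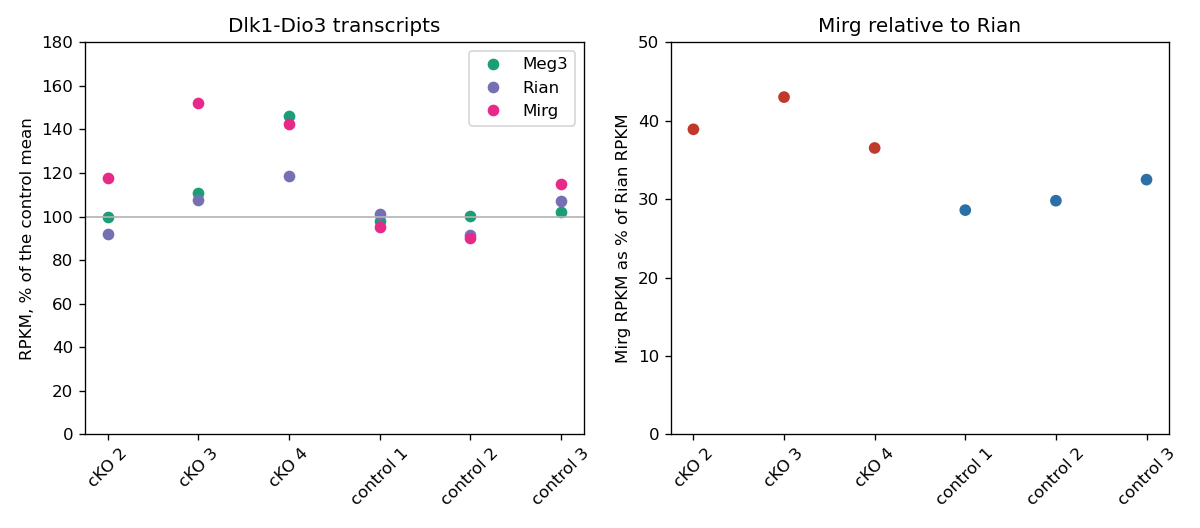
Left, RPKM of Meg3, Rian and Mirg in each library as a percentage of that transcript's control mean. Right, the RPKM of Mirg as a percentage of that of Rian in the same library. Mirg lies above 100% in all 3 cKO libraries and in control replicate 3, and the ratio to Rian is above 36% in every cKO library and below 33% in every control library.

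The other genes of the domain were listed with its flanks, 8 in all, of which 6 were tested and none was called. Dlk1, a membrane ligand related to the Notch ligands, was almost silent, with means of 0.0388 RPKM in the cKO and 0.0238 RPKM in the controls. Rtl1, a retrotransposon-derived gene on the minus strand, was below the level for testing. Its values were 0.483, 0.528 and 0.644 RPKM in the cKO and 0.383, 0.368 and 0.424 RPKM in the controls, so the cKO libraries lay above the controls. Its microRNA-bearing antisense transcript overlaps it, and without strand in the reads these directions cannot be told apart. Dio3, the enzyme that inactivates thyroid hormone, lay at 3.11 ± 0.152 and 3.26 ± 0.657 RPKM (SD, n = 3), with overlapping groups.

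The 2 flanking genes with the smallest p were Begain, a synaptic protein gene beside the domain, and Ppp2r5c, a regulatory subunit of protein phosphatase 2A. Begain stood at 38.8, 39.96 and 38.8 RPKM in the cKO and 32.8, 33.1 and 30.3 RPKM in the controls, with all cKO libraries above the controls and a log2 difference of 0.29 ± 0.0792 (SE, adjusted p = 0.758, limma). Ppp2r5c averaged 38.9 ± 3.05 and 33.5 ± 1.03 RPKM (SD, n = 3), also without overlap (adjusted p = 0.871, limma). These were the 2 of the 6 tested genes with all cKO values above the controls, against 5.91% of all tested genes. None had the opposite order, against 5.78%. Wars, the tryptophanyl-tRNA synthetase gene, was level at 36.2 ± 3.35 and 36.1 ± 0.862 RPKM. The median log2 difference of the 6 tested genes was 0.003, and on leaving out 1 library it ran from -0.044 without cKO replicate 3 to 0.081 without cKO replicate 4. It was 0.11 at a filter of 5 RPKM. Among 27 other imprinted genes, 19 were tested, none was called, and 5 had a higher and 14 a lower mean in the cKO (median -0.046, from -0.087 without control replicate 2 to -0.013 without control replicate 1). The 2 with the smallest p were Airn, the antisense RNA of Igf2r, at 1.04 ± 0.15 against 1.46 ± 0.14 RPKM, and Mest, at 29.97 ± 2.43 against 35.2 ± 2.17 RPKM. The cKO values lay below the control values in both (adjusted p = 0.849 and 0.871, limma), and reads of Airn cannot be told apart by strand from those of Igf2r. Of the 19 tested, 3 had this order, against 5.78% of all tested genes. None had the opposite order, against 5.91%. The 2 most abundant, Gnas and Nap1l5, overlapped between the groups.

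The hairpins inside the hosts had rows of their own in the table, which gave few reads. A read on a hairpin row can come from the uncropped host. The read sums given here by group are not scaled to depth. Reads in genes came to 19187838, 29007473 and 12336599 in cKO replicates 2, 3 and 4. In control replicates 1, 2 and 3 they came to 27204998, 30113335 and 32935029. For Mirg, 13 of its 14 hairpins were found by name and 12 were above 0, with 126 reads over the 6 libraries, 53 in the cKO and 73 in the controls. Of these, 59 fell on Mir3072, which ranged from 0.796 to 6.05 RPKM in the cKO and from 2.38 to 4.64 RPKM in the controls. Mir377 averaged 1.52 ± 0.611 and 1.01 ± 0.545 RPKM (SD, n = 3) from 15 reads in all. The 3 rows inside Rian had 27 reads, 8 in the cKO and 19 in the controls, and Mir770 inside Meg3 had none. Over the whole domain, 56 microRNA rows were in the table, 18 were at 0 in every library, 2 were tested and neither was called. At counts this low, differences of single hairpin rows were not detectable.

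Mir17hg, the transcript from which the miR-17-92 hairpins are cropped and a known transcriptional target of MYC, was the lowest of the 9. It stood at 0.802, 0.728 and 1.3 RPKM in the cKO and at 1.03, 0.899 and 1.01 RPKM in the controls. The cKO libraries lay on both sides of the control range, with the highest value in cKO replicate 4 and the 2 lowest in the other cKO libraries. The means were 0.943 ± 0.311 and 0.981 ± 0.0712 RPKM (SD, n = 3), and an exact permutation test gave p = 0.9. Its overall mean of 0.962 RPKM was under the level of 1 RPKM for testing, and with no such level the log2 difference was -0.06 ± 0.15 (SE, adjusted p = 0.99, limma). From 46 to 96 reads a library fell on it, and the counting error was 14.7% at the fewest.

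Without scaling to depth, the 6 hairpins of the cluster had 54 reads between them, 20 in the cKO and 34 in the controls. Mir20a held 21 of these, 4 in the cKO and 17 in the controls, with 0, 0.261 and 1.85 RPKM in the cKO and 1.09, 1.68 and 1.38 RPKM in the controls. The highest and the lowest of the 6 values were both in cKO libraries (adjusted p = 0.925, limma). Mir92-1 had no read in any library. Mcm7, a subunit of the replicative helicase and host of the related miR-106b-25 cluster, stood at 5.35, 5.26 and 5.27 RPKM in the cKO and 6.27, 5.74 and 7.02 RPKM in the controls. All cKO libraries lay below the controls (log2 difference -0.24 ± 0.0879 SE, adjusted p = 0.849, limma), as in 5.78% of all tested genes. Mir25, a hairpin inside Mcm7, had the higher mean in the cKO, at 2.15 ± 1.1 against 1.28 ± 0.609 RPKM (SD, n = 3), with overlap (log2 difference 0.54 ± 0.371 SE, adjusted p = 0.965, limma). Of these 15 hairpin rows and host genes, 4 were tested, 1 had a higher and 3 a lower mean, and none was called. Their median was -0.44, but leaving out cKO replicate 4 gave -0.11 and leaving out control replicate 2 gave -0.26.

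Of 15 regulators and textbook targets of miR-17-92, 13 were tested, 6 had a higher and 7 a lower mean, and none was called (median -0.0079, from -0.038 without cKO replicate 2 to 0.012 without control replicate 2). Ctgf, a matricellular protein gene known as a target of miR-18 and miR-19, had the smallest p. It stood at 8.07, 9.09 and 11 RPKM in the cKO and 14.6, 13.4 and 15.8 RPKM in the controls. Every cKO library was below every control library, and the log2 difference was -0.62 ± 0.122 (SE, adjusted p = 0.502, limma). E2f3, a cell cycle transcription factor and target of miR-17 and miR-20a, averaged 6.36 ± 0.241 against 5.22 ± 0.349 RPKM (SD, n = 3), higher in every cKO library (adjusted p = 0.849, limma). Of the 13, 2 were lower in every cKO library, against 5.78% of all tested genes, and 1 was higher, against 5.91%. Phlpp1, a phosphatase that acts on Akt, was level at 16.4 ± 0.593 and 16.4 ± 1.03 RPKM.

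Miat lies at chr5:112213228-112229395 on the minus strand of GRCm38, and its RNA is known for repeats of the sequence UACUAAC, which bind the splicing factor SF1. The longest annotated Miat transcript (9163 nt, GENCODE M21) held 6 copies of TACTAAC in its own direction, between nt 4941 and nt 5623, and none on the opposite strand. A stretch from nt 5580 to nt 5609 is shown, 5′ to 3′ along the transcript, with 2 copies in capitals.
Miat: atgctgtgcTACTAACccggcccTACTAAC
Among 4189 genes whose longest transcript has at least 5000 nt, 16.8% held at least 1 copy in the transcript's direction and 0.0477%, or 2 genes with Miat included, held as many as Miat. Of the other 8 transcripts, Neat1 held 1 copy, Meg3 and Mir17hg held 1 on the opposite strand only, and the remaining 5 had none.

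Miat was higher in the cKO libraries by a small margin over very even controls. It stood at 4.51, 4.75 and 5.73 RPKM in the cKO and at 4.02, 4.02 and 3.98 RPKM in the controls. The controls had an SD of 0.586% of their mean, below even the counting error of 2.59% at the most reads. All 3 cKO libraries lay above them, and cKO replicate 4 was the highest. The means were 4.99 ± 0.646 and 4.01 ± 0.0235 RPKM (SD, n = 3), or 124.6% of control, with a log2 difference of 0.28 ± 0.0971 (SE). The adjusted p was 0.849 (limma) and the exact permutation p was 0.1. Without cKO replicate 4 the difference was 0.19. Celf3, an RNA-binding protein reported to bind Miat, stood at 65.4, 71.9 and 70.6 RPKM in the cKO and 53.7, 58.2 and 53.6 RPKM in the controls. Its groups did not overlap either, with every cKO library the higher, and its log2 difference was 0.33 ± 0.0862 (SE, adjusted p = 0.701, limma). Celf3 was named for the smallest p on a list of 22 genes, made of nuclear speckle proteins with Celf3 and other RNA-binding proteins added. The others on that list overlapped between the groups. Those others include Sf1, whose protein binds the UACUAAC repeats. The summed level of the bipolar cell markers, given above, was also higher in every cKO library, through 2 of its 6 genes without overlap, and its part in the Miat values was not tested.

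Of the genes listed beside Miat and Snhg11, the 2 with the smallest p both lie beside Miat. Asphd2 averaged 37.4 ± 1.99 and 31.4 ± 2.5 RPKM, and Hps4, which encodes a subunit of a complex for lysosome-related organelles, 19.9 ± 1.12 and 17.1 ± 0.437 RPKM (SD, n = 3). Both were higher in every cKO library, and both had an adjusted p of 0.849 (limma). They were the only 2 of the 12 tested genes on the list with this order, against 5.91% of all tested genes. None had all cKO values below the control values, against 5.78%. The lens crystallin genes Crybb2 and Crybb3 of the same list ran from 70.5 to 915.8 RPKM and from 36.1 to 458.1 RPKM with overlapping groups, and varied between libraries as the lens markers did. Of the 16 genes beside Miat and Snhg11, 12 were tested and none was called (median 0.083, from 0.043 without cKO replicate 3 to 0.18 without cKO replicate 4).

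The profile of Miat over the 6 libraries was compared with those of all tested genes with at least a comparable spread. The likeness measure was the root mean square difference of centred log2(RPKM + 0.5) values, and it describes these 6 libraries only. Nearest to Miat among 9607 genes were Ift122 (0.025), a part of the intraflagellar transport machinery of cilia, Snx7 (0.029), a sorting nexin, and Lman1l (0.04). Meg3 ranked 81 by this measure (0.076). Ift122 stood at 20.3, 21.4 and 24.3 RPKM in the cKO and 17.7, 17.9 and 18.1 RPKM in the controls. Nearest to Meg3 among 8157 genes were Rgl2 (0.029), Efcab7 (0.033) and Cbfb (0.037). Miat ranked 50, Rian 647, Neat1 1633, Snhg11 2254, Mirg 2708 and Malat1 7810, so the transcripts of the domain were not the closest to Meg3.

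**Figure D3:**
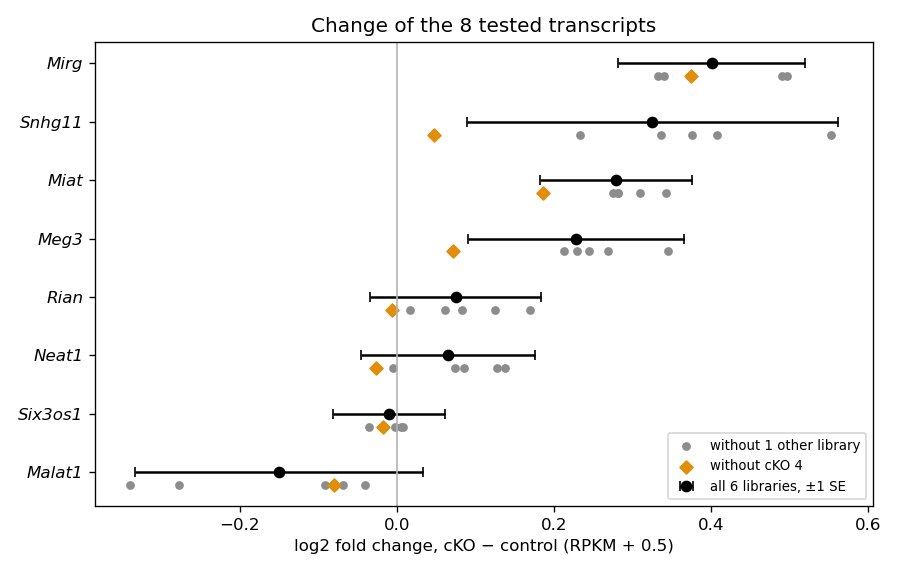
Log2 difference, cKO minus control, of the 8 tested transcripts on the log2(RPKM + 0.5) scale (black, bars of 1 SE to either side), with the value after leaving out cKO replicate 4 (orange) and each other library (grey). Without cKO replicate 4, Snhg11 is 0.05 in place of 0.33, Meg3 0.07 in place of 0.23 and Mirg 0.37 in place of 0.40.

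Malat1 was the most abundant of the 9 and did not separate the groups. It lies at chr19:5795690-5802672 on the minus strand of GRCm38, and its mature end is a triple helix with a stretch of encoded A bases, not an added poly(A) tail. It stood at 217, 168 and 165 RPKM in the cKO and at 226, 235 and 155 RPKM in the controls. The highest and the lowest library were both controls, so the difference inside the control group was larger than that between the groups. The means were 183.5 ± 29.3 and 205.3 ± 43.8 RPKM (SD, n = 3), with a log2 difference of -0.15 ± 0.183 (SE, adjusted p = 0.997, limma). Between 17464 and 63949 reads fell on it, and the counting error was at most 0.757%, far under the SD of 16% in the cKO and 21.3% in the controls.

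The order of the 6 libraries for Malat1 was also that of gene models of its length. Its model has 6982 nt. For the 1098 tested genes with models from 6000 to 9000 nt, the median difference of a library from the gene's own mean, on the log2 scale, was 0.032, -0.033 and -0.041 in cKO replicates 2, 3 and 4. In control replicates 1, 2 and 3 it was 0.04, 0.047 and -0.044. Control replicates 2 and 1 and cKO replicate 2 were thus the highest, and control replicate 3 the lowest, both for these models and for Malat1. These medians spanned a far narrower range than Malat1 itself, which ran from 155 to 235 RPKM. The medians were wider for the 330 genes with models of at least 9000 nt, from -0.096 in cKO replicate 4 to 0.11 in control replicate 2. For the 1044 genes with models under 1000 nt the medians were -0.23, -0.023 and 0.22 in the cKO and 0.037, -0.17 and 0.2 in the controls. Their sign was opposite to that of the longest models in cKO replicates 2 and 4 and control replicates 2 and 3, and the same in cKO replicate 3 and control replicate 1. The part of this length shift in the Malat1 values was not tested. Meg3 and Miat did not follow it. The model of Meg3 has 12906 nt, and Meg3 was highest in cKO replicate 4, where the longest models had their lowest median. Miat, with a model of 8760 nt, was also highest in cKO replicate 4, where the median of models from 6000 to 9000 nt was -0.041. Six3os1, with a model of 7127 nt, was highest in control replicate 1 and lowest in control replicate 3.

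**Figure D4:**
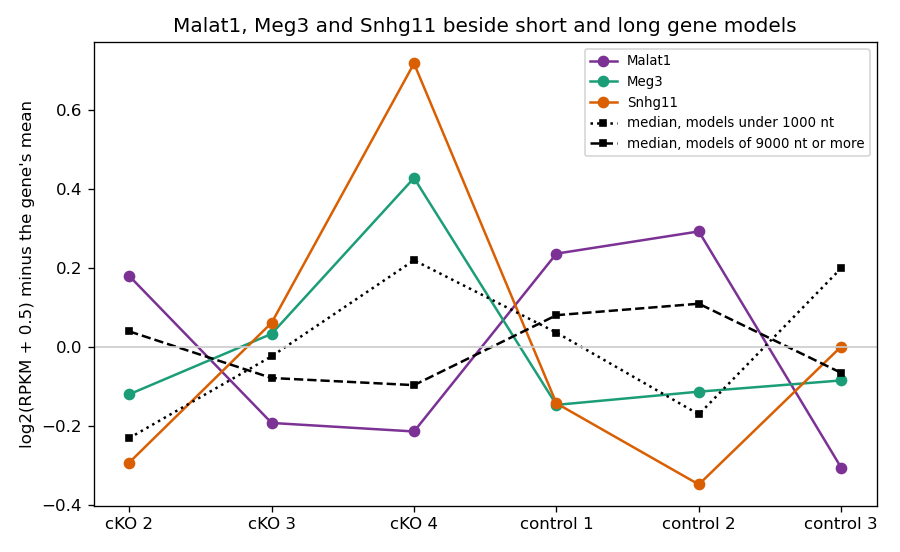
Difference of each library from a gene's own mean, on the log2(RPKM + 0.5) scale, for Malat1, Meg3 and Snhg11, with the median of the 1044 tested genes with models under 1000 nt (dotted) and of the 330 with models of at least 9000 nt (dashed). Malat1 is above 0 in the same 3 libraries as the longest models, while Meg3 and Snhg11 peak in cKO replicate 4; the lines join libraries only to guide the eye.

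Nearest to Malat1 in profile among 6383 genes were Col18a1 (0.045), which encodes a basement membrane collagen, Mll2 (0.056), a histone methyltransferase gene with a model of 19805 nt, and Sned1 (0.066). Col18a1 stood at 21, 16.5 and 15.3 RPKM in the cKO and 20.5, 21.3 and 14.6 RPKM in the controls. Neat1 ranked 1312 (0.24), although it lies next to Malat1.

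Neat1 lies at chr19:5824708-5845478 on the minus strand of GRCm38. The gene model behind its values had 3177 nt, near an annotated transcript of 3004 nt and far from the longest one of 20771 nt. Which part of the gene this model covers is not known here. The short isoform carries a poly(A) tail and the long isoform, which builds paraspeckles, ends like Malat1 in a triple helix, so the 2 isoforms cannot be told apart here. Neat1 stood at 7.56, 6.99 and 8.91 RPKM in the cKO and 7.51, 8.13 and 6.67 RPKM in the controls. The groups overlapped throughout, with means of 7.82 ± 0.983 and 7.44 ± 0.732 RPKM (SD, n = 3) and a log2 difference of 0.07 ± 0.111 (SE, adjusted p = 0.997, limma). Neat1 as a share of Malat1 was 4.34 ± 0.966% in the cKO and 3.7 ± 0.531% in the controls, with overlap.

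The proteins of the bodies that these RNAs occupy were measured as transcripts. All 24 paraspeckle protein genes were tested and none was called, with 14 higher and 10 lower means (median 0.016, from -0.014 without cKO replicate 4 to 0.044 without cKO replicate 2). Cirbp, an RNA-binding protein induced by cold, had the smallest p and the highest level. It stood at 146, 165 and 157 RPKM in the cKO and 116, 117 and 136 RPKM in the controls, higher in every cKO library (log2 difference 0.34 ± 0.103 SE, adjusted p = 0.849, limma). Of the 24, 3 were higher in every cKO library, against 5.91% of all tested genes. None was lower in every cKO library, against 5.78%. Rbm4 averaged 7.9 ± 0.375 and 9.3 ± 0.979 RPKM and Ewsr1 72.7 ± 3.92 and 70.8 ± 4.42 RPKM, both with overlap. All 22 genes of the nuclear speckle list, which also holds the Miat binder Celf3, were tested and none was called. Means were higher for 16 and lower for 6 (median 0.036, from -0.08 without cKO replicate 4 to 0.11 without cKO replicate 2). Celf3 was the only gene on this list without overlap. Among the splicing factors, Srsf4 averaged 89.2 ± 8.39 and 87 ± 5.76 RPKM, Srsf2 79.7 ± 15.3 and 70.2 ± 1.31 RPKM, and Srsf10 3.09 ± 0.559 and 3.55 ± 0.265 RPKM, all with overlap.

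Of the 11 genes beside Malat1 and Neat1, 8 were tested and none was called, with 5 higher and 3 lower means (median 0.076, from 0.034 without cKO replicate 3 to 0.071 without cKO replicate 4). In 3 of the 8 the cKO values all lay above the control values, against 5.91% of all tested genes. In 2 they all lay below, against 5.78%. Cdc42ep2, an effector of the small GTPase Cdc42, was 1 of those lower in every cKO library, at 2.48 ± 0.409 against 3.27 ± 0.271 RPKM (adjusted p = 0.849, limma). Dpf2, a subunit of a chromatin remodelling complex, was level at 26 ± 0.716 and 25.1 ± 1.24 RPKM.

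Snhg11 is a host gene of snoRNAs known for high levels in neurons. It lies at chr2:158375638-158386145 on the plus strand of GRCm38, with 2 annotated snoRNAs inside, and GENCODE M21 classes it as protein coding. It stood at 54.3, 69.6 and 109.9 RPKM in the cKO and 60.3, 52.3 and 66.7 RPKM in the controls. A single library, cKO replicate 4, was far above all others, and cKO replicate 2 lay inside the control range. The means were 77.9 ± 28.7 and 59.8 ± 7.24 RPKM (SD, n = 3), or 130.4% of control, with a log2 difference of 0.33 ± 0.236 (SE, adjusted p = 0.972, limma). Without cKO replicate 4 the difference was 0.05. The counting error of at most 1.13% was small beside the SD of 36.9% in the cKO.

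The snoRNA hosts as a list also depended on cKO replicate 4. Of 16 listed hosts 14 were tested, none was called, and 4 had a higher and 10 a lower mean (median -0.027). The median was -0.21 without cKO replicate 4, -0.11 without control replicate 2 and 0.039 without cKO replicate 2. The 2 with the smallest p, Rpsa and Snhg10, averaged 1.31 ± 0.0834 against 1.57 ± 0.287 RPKM and 2.33 ± 0.7 against 2.78 ± 0.484 RPKM. Rpsa is a ribosomal protein gene with many processed copies, so its reads may be split between them. Snhg12 ran from 8.55 to 18.4 RPKM in the cKO and from 12 to 17 RPKM in the controls, with its highest value in cKO replicate 4, as for Snhg11. Eef2, the translation elongation factor, was level at 509 ± 63.6 and 506.5 ± 20.5 RPKM.

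Six3os1 was the steadiest of the 9. It lies at chr17:85600651-85618398 on the minus strand of GRCm38 and is reported to act as a scaffold for partners of Six3. It stood at 9.72, 9.38 and 9.69 RPKM in the cKO and 9.92, 9.77 and 9.31 RPKM in the controls. All 6 libraries lay between 9.31 and 9.92 RPKM, and the means were 9.6 ± 0.189 and 9.67 ± 0.321 RPKM (SD, n = 3). The log2 difference was -0.01 ± 0.0712 (SE, adjusted p = 0.997, limma), the smallest in size of the 8. The cKO spread of 1.97% was below the counting error of 3.09% at the fewest reads.

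Six3, the homeobox gene on the opposite strand, was the more abundant of the pair in every library. It stood at 34.1, 37.4 and 39.95 RPKM in the cKO and 33.3, 34.2 and 34.7 RPKM in the controls, with overlap (adjusted p = 0.972, limma). Six3os1 was 26 ± 2.26% of Six3 in the cKO and 28.4 ± 1.48% in the controls, also with overlap. In GENCODE M21 the 2 genes share 4791 bases of the genome but only 106 bases of exon, or 0.892% of the exon bases of Six3os1. The gene model behind the Six3os1 values had 7127 nt, longer than the longest annotated transcript of 5601 nt. How many of its bases Six3 shares is not known here. Without strand in the reads, those on the shared bases cannot be assigned. Of 10 neighbours and partners 6 were tested and none was called. Eya2, a cofactor of Six3 and its relatives, was higher in every cKO library, at 3.53 ± 0.128 against 3.04 ± 0.181 RPKM (adjusted p = 0.871, limma), and Prkce overlapped. Eya2 was the only 1 of the 6 with this order, against 5.91% of all tested genes.

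Of 38 other long noncoding RNAs listed, 23 were found by symbol and 13 tested, none was called, and 4 had a higher and 9 a lower mean (median -0.15, from -0.25 without cKO replicate 4 to -0.1 without cKO replicate 3). Rmrp, the RNA of the mitochondrial RNA processing ribonuclease, had the smallest p. It stood at 10.1, 6.09 and 6.49 RPKM in the cKO and 18.6, 14.7 and 10.6 RPKM in the controls, lower in every cKO library (log2 difference -0.91 ± 0.233 SE, adjusted p = 0.691, limma). Rmrp is a short RNA with no poly(A) tail, in libraries made from poly(A) RNA, and the part of that selection in its values was not tested. Tug1, an RNA known from photoreceptor development, averaged 7.07 ± 0.307 against 8.6 ± 0.582 RPKM (SD, n = 3), also lower in every cKO library (adjusted p = 0.849, limma). In 3 of the 13 the cKO values all lay below the control values, against 5.78% of all tested genes. One of these is Airn, which is on the imprinted list as well. In none did they all lie above, against 5.91%. The most abundant of the list, A930011O12Rik, exceeded Malat1 at 265, 297 and 399 RPKM in the cKO and 252, 251 and 282 RPKM in the controls. Its highest value was in cKO replicate 4, and the groups overlapped. Vax2os1, which lies opposite the eye gene Vax2, averaged 108.6 ± 9.98 and 122.8 ± 14.1 RPKM, with overlap.

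The spread between libraries was far wider than the counting error for the abundant transcripts. For Malat1, Snhg11 and Meg3 in the cKO the SD was 16%, 36.9% and 20.5% of the mean, beside counting errors of at most 1.13%. For Mirg the SD of 13% in the cKO was close to the counting error of 11%, while for Mir17hg, the rarest, it was 33% beside 14.7%. Rian, Neat1 and Miat lay between, with cKO SDs of 12.7%, 12.6% and 12.9% and counting errors of at most 4.83%. Of the 9 transcripts, 6 had their highest value in cKO replicate 4, the library with the fewest reads and the highest value of 30.3% of all tested genes.

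**Figure D5:**
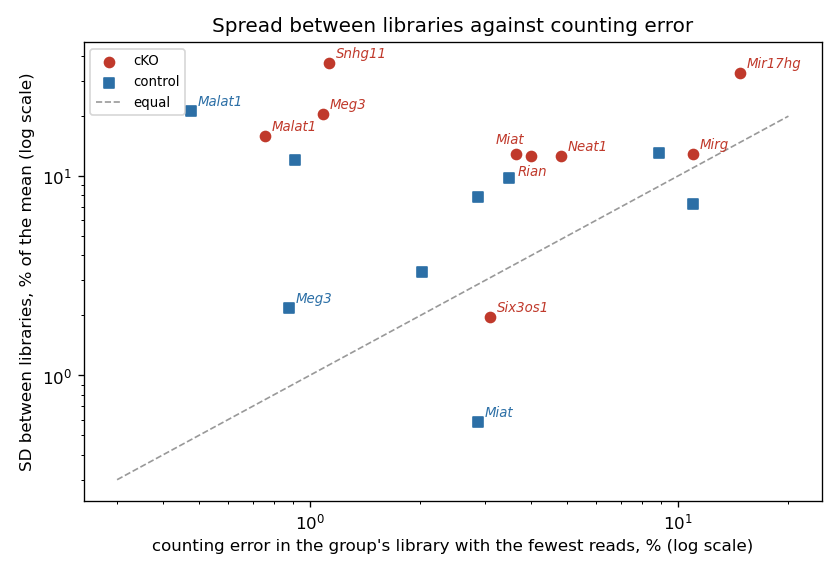
SD between the 3 libraries of a group as a percentage of the mean against the Poisson counting error of the group's library with the fewest reads (both axes logarithmic), for the 9 transcripts in the cKO (red circles) and the controls (blue squares); the dashed line marks equal values. Meg3 in the cKO (20.5%) and in the controls (2.18%) differ widely at similar counting error, and Miat in the controls (0.586%) lies below the line.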

How the data were processed

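Poly(A) RNA of 6 retinal libraries was sequenced. The authors deposited 1 table of RPKM values per gene and library. The submitters' processing notes name GSNAP, HTSeq and the mm9 build, with versions and annotation not given in the sources used here. Division by model length and depth makes the unit, so a shift with gene length stays in the values, and the protocol keeps no strand. Within a gene the values were taken as whole multiples of 1 read, using 4277 genes with a single GENCODE M21 transcript for the scale. Each gene took the smallest model length that put all its values on whole reads. This gave reads for 100% of the 19140 genes above 0. With few reads, a length shorter than the true one can fit. Reads of such genes can then be too few, and the 100% is no check of them. Hairpin rows used the annotated hairpin lengths instead. Counting errors are Poisson and leave out other error.

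Genes whose mean reached 1 RPKM (12599) were tested with limma 3.58.1 in R 4.3.3 on log2(RPKM + 0.5), with a variance trend, two-sided, Benjamini-Hochberg over all of them, threshold 0.05; the step was tested on simulated data. Fold changes on this scale understate changes of low genes. Single genes had exact two-sided permutation tests. Samples were grouped by the labels' source name, and replicates were not paired. Every sample column was used.

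Positions and transcripts are from GENCODE M21 (GRCm38), microRNAs from RefSeq; neither is the authors' build, and both serve to place and show the transcripts. Model lengths worked back from the values differed from the annotated transcripts for Meg3, Rian, Mir17hg, Neat1 and Six3os1. The motif TACTAAC was searched on both strands of each gene's longest transcript. The transcripts and lists were chosen with earlier results of these data known. All 9 transcripts were named, with 3 nearest profiles each for Meg3, Malat1 and Miat. From each list came the genes that passed, the 2 most abundant and the 2 with the smallest p. A gene that this rule names is not reported here. Dlk1, Rtl1, Dio3, Dicer1 and Xist were named in addition. Alternatives changed the pseudocount, the filter, the scaling, the trend, the block and the libraries used, or put limma voom on the recovered reads.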

Additional observations from a re-analysis of the deposited data

How the results depend on the processing

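None of the transcripts was called in any of the 16 alternatives. Of 126 log2 differences, 115 kept their direction, and the lowest adjusted p was 0.492 outside the replicate block. Leaving out 1 library at a time gave 0.072 to 0.35 for Meg3, -0.0061 to 0.17 for Rian, 0.33 to 0.5 for Mirg, 0.19 to 0.34 for Miat, -0.34 to -0.041 for Malat1, -0.026 to 0.14 for Neat1, 0.047 to 0.55 for Snhg11 and -0.036 to 0.0083 for Six3os1. The sign turned for Rian without cKO replicate 4 (-0.0061), for Neat1 without cKO replicate 4 (-0.026) or control replicate 3 (-0.0054), and for Six3os1 without cKO replicate 3 (0.0058) or control replicate 1 (0.0083). The median of the transcripts, 0.15 with all libraries, ran from 0.021 to 0.26 over these, lowest without cKO replicate 4 and highest without cKO replicate 2. It was 0.07 at a filter of 5 RPKM, which leaves fewer transcripts. Over all genes 1 was called higher and 0 lower. The count of higher genes was 2 at a filter of 5 RPKM, 2 with no variance trend, 2 with limma voom on recovered reads, and 3 with either median-of-ratios or upper-quartile scaling. The count of lower genes was 2 with no filter and 1 with voom. The cause of these changes was not tested.

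The sources used here do not say whether libraries with the same replicate number share more than the number. Their deviations from the group means correlated at 0.465 for replicate 2 and -0.052 for replicate 3. With the replicate block, which uses the 4 libraries numbered 2 and 3, 86 genes were called higher and 106 lower, against 1 and 0 on the same 4 libraries without the block. The lowest adjusted p of the transcripts was then 0.0924, for Mirg. On these 4 libraries, with or without the block, Malat1 was 0.00049, Neat1 -0.018 and Six3os1 0.0013, and the median of the transcripts was 0.029.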
